A study of Rattus norvegicus with 12 samples.

Results

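Integrins, laminins and cadherins, the receptors and ligands by which cells hold on to the matrix and to each other, were followed in cultured rat retinal ganglion cells (RGCs) exposed to the 3 endothelins. The set was chosen by gene symbol: probe sets annotated to a single symbol beginning with Itga, Itgb, Lama, Lamb, Lamc or Cdh and then a number were taken, without Itgam. It held 69 probe sets of 45 genes, among 14217 genes with a single symbol on the array. It comprised 9 integrin alpha genes, 7 integrin beta genes, 10 laminin genes, 16 cadherin genes and 3 genes that match by prefix but encode integrin-binding proteins (Itgb1bp1, Itgb1bp2 and Itgb3bp). Symbols without a number after the prefix, such as Itgav, lie outside the rule. Each gene was read from the probe set with its highest mean log2 signal.

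RNA was taken from primary RGCs of Sprague-Dawley rats aged 4 to 6 postnatal days. The cells had been panned on antibody to Thy-1.1, grown for 7 days with BDNF, CNTF and forskolin, and left overnight in medium lacking neurotrophic support. Cells then received 1 of the 3 endothelin peptides, written ET-1, ET-2 and ET-3 here, at 100 nM for 24 h, or none (the untreated group, described as vehicle in a second label). Each of the 4 groups had 3 Affymetrix arrays, numbered as biological replicates 1 to 3. The labels do not state what a number stands for, or how many animals gave a culture. The p-values therefore measure only the spread among these arrays, which the main test takes within a number.

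Integrins are receptors of an alpha and a beta chain that span the membrane and tie extracellular matrix to the actin cytoskeleton through the proteins of focal adhesions. Laminins are cross-shaped trimers of an alpha, a beta and a gamma chain. They form the sheet of a basement membrane and are ligands of several beta-1 integrins, through which RGC axons grow on laminin. Cadherins join neighbouring cells by calcium-dependent contacts and are coupled to actin by catenins. The endothelins are short peptides that act on the endothelin A and B receptors. ET-2 differs from ET-1 at fewer residues than ET-3 does.

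The labelled cell type and the replicate numbers were examined first. All 17 RGC marker genes found on the array exceeded the signal filter, and none passed the test with the mean of the endothelins (5.27% of all genes tested did). None of 9 photoreceptor and bipolar cell markers exceeded the filter. The summed signal of 12 fibroblast markers, however, ran from 56600 to 62450 on the arrays of replicate 1, from 10990 to 13910 on those of replicate 2 and from 8217 to 9888 on those of replicate 3. The RGC sum ran from 104600 to 109100, from 125700 to 138500 and from 147500 to 160300 under the same numbers. In RNA from a whole culture, fewer cells of a type and less RNA per cell cannot be told apart. Because arrays of a number stood together, the test compared arrays within a number (limma with the replicate number as a block, Benjamini-Hochberg adjustment over 15521 probe sets, threshold 0.05).

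Of the 45 genes, 26 had a mean log2 signal over the 12 arrays that reached the median of the whole array and were tested. The genes that passed the test were Itgb1, Itgb3 and Lamb1 with ET-1, Itgb1 and Lamb1 with ET-2, and Itga1, Itga8, Itgb1, Itgb3 and Lamb1 with ET-3. All of these rose and no member fell. The counts were thus 3, 2 and 5 of 26, where 2.03%, 1.87% and 3% of the 9425 genes tested passed (1.84%, 1.49% and 2.54% higher, 0.191%, 0.382% and 0.467% lower). Itgb3 and Itga8 reached the filter only through their treated arrays, so these counts are a description. With no filter the counts were 2 with ET-1, without Itgb3, 1 with ET-2, without Itgb1, 3 with ET-3, without Itga1 and Itga8, and 3 in the mean contrast described next, without Itga8. Against the mean of the 3 endothelins, 4 members rose (Itga8, Itgb1, Itgb3 and Lamb1) where 5.27% of all genes passed, 4.02% higher and 1.25% lower. The 4 comparisons share the untreated arrays. Without the replicate block no member and no other probe set passed (limma), in any of the 7 comparisons. Counted by sign alone, 6, 6, 8 and 8 members were higher under all 3 numbers with ET-1, ET-2, ET-3 and the mean, where 15.9%, 14.2%, 15.9% and 15.6% of all genes were. Lower under all 3 numbers were 4, 2, 2 and 1 members, where 19.2%, 21.8%, 19.7% and 22.3% of all genes were. At an unadjusted p below 0.05 the fit without the block held 0, 0, 2 and 1 members with ET-1, ET-2, ET-3 and their mean, and 237, 223, 297 and 397 probe sets in all. Leaving out libraries moved the counts of members by over 1.5 times. ET-1 gave none without replicate 2, 1 without replicate 1 or the ET-1 array of replicate 2, and 6 without the untreated array of replicate 3. ET-2 gave none without replicate 1, 2 or 3 or the ET-2 array of replicate 1 or 3, and 1 without the untreated array of replicate 1, the ET-2 array of replicate 2 or the ET-1 array of replicate 3. ET-3 gave none without replicate 1 or 2 or the ET-3 array of replicate 2, 1 without the ET-3 array of replicate 1, 2 without the untreated array of replicate 1 and 3 without replicate 3 or its ET-3 array. The mean gave 2 (Itgb1 and Lamb1) without replicate 1 or its untreated array, and 7 without the untreated array of replicate 3. Calls over all 15521 probe sets moved under these omissions too. With ET-1 they went from 268 to 23 without replicate 2 and 575 without the untreated array of replicate 3. With ET-2 they went from 249 to 32 without replicate 1, and with ET-3 from 410 to 43 without replicate 2. For the mean they went from 758 to 226 without replicate 1 and 1014 without the untreated array of replicate 3.

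**Figure D1:**
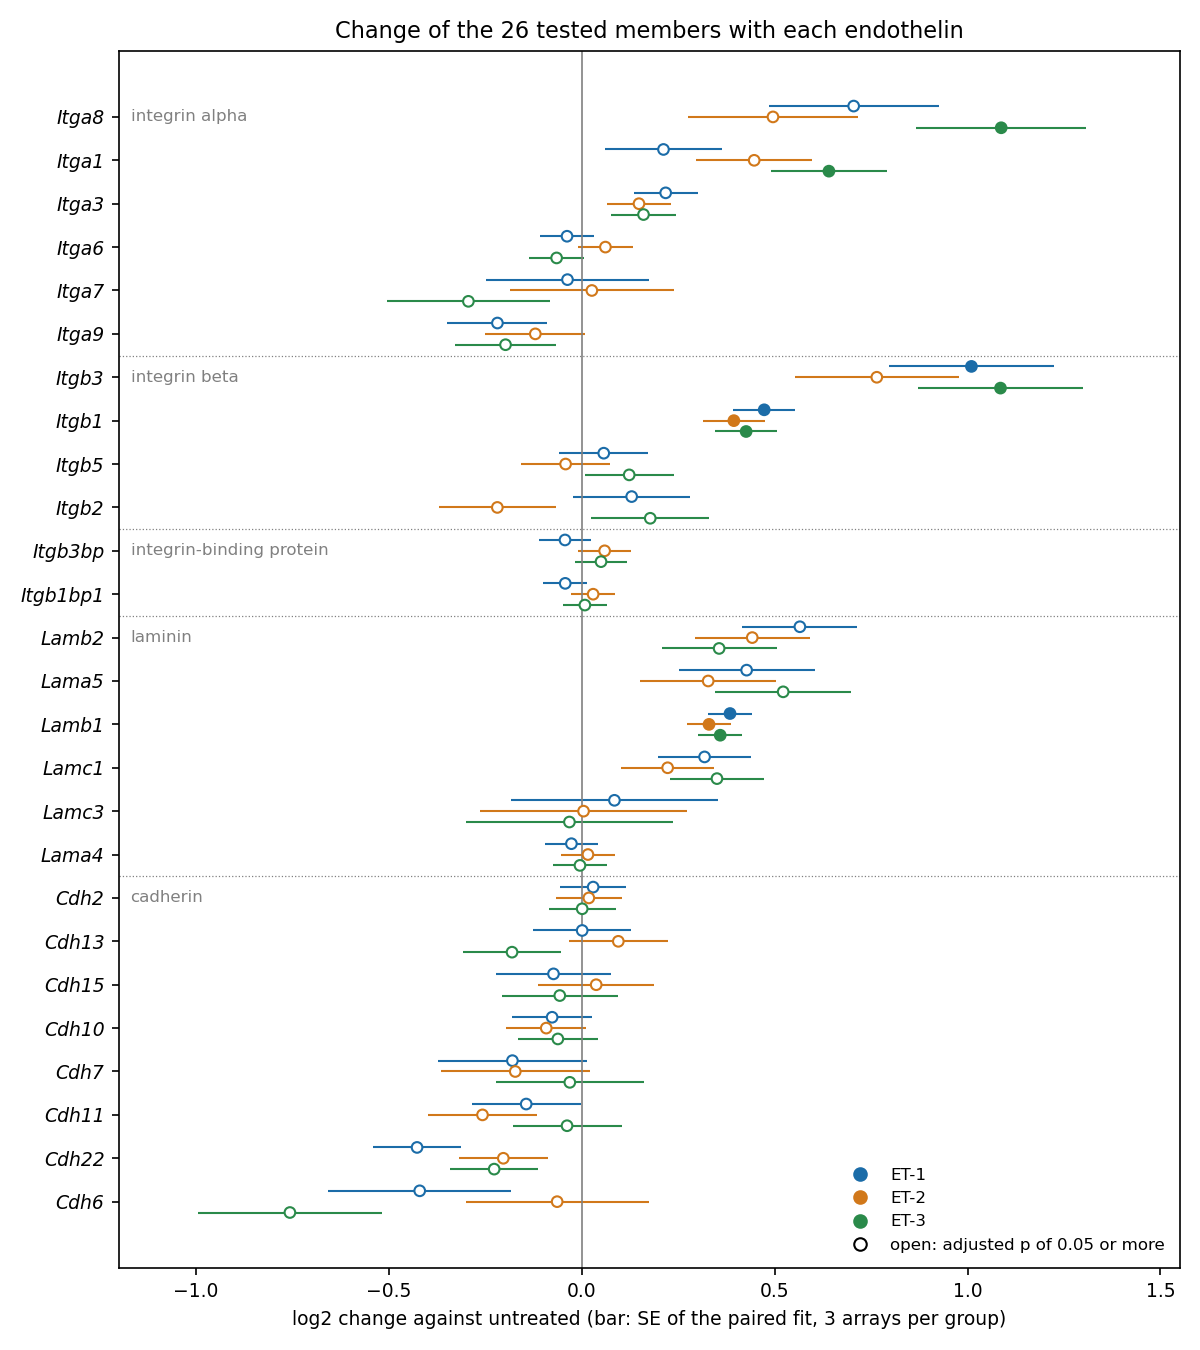
Change in log2 signal of the 26 tested members with ET-1, ET-2 and ET-3 against untreated, with bars for the standard error of the fit with the replicate block (3 arrays per group). Filled points passed an adjusted p of 0.05 and open points did not; the filled points are all to the right of 0 and belong to integrins and Lamb1, while most cadherin points lie left of 0.

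Among the beta chains, Itgb1 and Itgb3 rose and Itgb2 and Itgb5 did not pass the test. Itgb1 encodes the beta-1 chain, which pairs with most alpha chains, including those that bind laminin and collagen. Its signal in untreated cells was 4822, 3852 and 3235 in replicates 1, 2 and 3. With ET-1 it was 7332, 5320 and 4117, with ET-2 it was 7646, 4615 and 3864, and with ET-3 it was 7959, 4718 and 3879. Groups overlapped when pooled, but each treated array lay above the untreated array of its own number. The log2 change was 0.47 ± 0.08 (SE, n = 3 arrays per group; 1.39-fold) with ET-1, 0.39 with ET-2 and 0.43 with ET-3, and limma's adjusted p was 0.0102, 0.0319 and 0.0163. For the mean of the endothelins it was 0.43 ± 0.07, with an adjusted p of 0.00282. A further probe set of Itgb1 changed by 0.59, 0.43 and 0.63 (adjusted p 0.0168, 0.0750 and 0.00961), so that it did not pass with ET-2.

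The calls of Itgb1 with single peptides depended on single libraries. With ET-1 the call was lost without replicate 2 (0.48) and without the ET-1 array of replicate 2 (0.43). With ET-2 it was lost without replicate 1, 2 or 3 (0.26, 0.46 and 0.46) and without the untreated array of replicate 1 (0.28), the ET-2 array of replicate 1, 2 or 3 (0.33, 0.44 and 0.41) or the ET-1 array of replicate 3 (0.39). With ET-3 it was lost without replicate 1, 2 or 3 (0.28, 0.49 and 0.51) and without the ET-3 array of replicate 1 (0.34) or 2 (0.47). The mean of the endothelins kept its call under each omission, at 0.31 without replicate 1 (adjusted p 0.0152).

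Itgb3 encodes the beta-3 chain, the partner of the alpha-v and alpha-IIb chains in receptors for vitronectin, osteopontin and fibrinogen. Untreated cells read 178.2, 121.8 and 52.67 in replicates 1 to 3. The readings were 444.5, 231.6 and 90.67 with ET-1, 484.4, 163.1 and 70.92 with ET-2, and 596.5, 244.4 and 74.88 with ET-3. Replicate 1 was highest and replicate 3 lowest in every group, and each treated array exceeded the untreated array of its number. The log2 change was 1.01 ± 0.21 with ET-1 (adjusted p 0.0322), 0.76 with ET-2 (0.106, not passed), 1.09 with ET-3 (0.0188) and 0.95 ± 0.17 for the mean (0.00823). Itgb3 passed the signal filter with a mean log2 signal of 7.42 against a limit of 7.20, while the mean over its untreated arrays was 6.71. A member that clears the filter through its treated arrays had to differ, and with a pseudocount of 32 its ET-1 change was 0.83 (adjusted p 0.0575).

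In the mean of the endothelins, the Itgb3 call ended without replicate 1 (0.68, adjusted p 0.150), without the untreated array of replicate 1 (0.68, 0.0660) and without replicate 2 (1.04, 0.0801). With ET-3 it ended under the same 3 omissions (0.76, 0.81 and 1.13) and without the ET-3 array of replicate 1 (0.92) or 2 (1.05). With ET-1 it ended without replicate 1, 2 or 3 (0.86, 1.05 and 1.12), without the untreated array of replicate 1 (0.74) or 2 (1.09), without the ET-1 array of replicate 1, 2 or 3 (1.08, 0.98 and 0.97), and, with the value staying at 1.01, without the ET-3 array of replicate 2 or the ET-2 array of replicate 3. With ET-2 it passed without the untreated array of replicate 3 (0.95). Itgb2, the beta chain of leukocyte integrins, differed by 0.03 ± 0.12 in the mean contrast, made of -0.43, 0.26 and 0.26 in replicates 1, 2 and 3. The summed microglia and macrophage markers overlapped between groups (5515 to 7361 untreated, 4482 to 9362 treated). Their untreated sums were 5672, 7361 and 5515 in replicates 1 to 3. The treated sums were 4833 to 5255, 7358 to 9362 and 4482 to 5831 under the same numbers. Itgb5, another partner of the alpha-v chain, differed by 0.05 ± 0.09. The 3 remaining beta genes, the epithelial Itgb4 and Itgb6 and the lymphocyte gene Itgb7, lay under the filter, with 126.2 as the highest signal on any array.

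**Figure D2:**
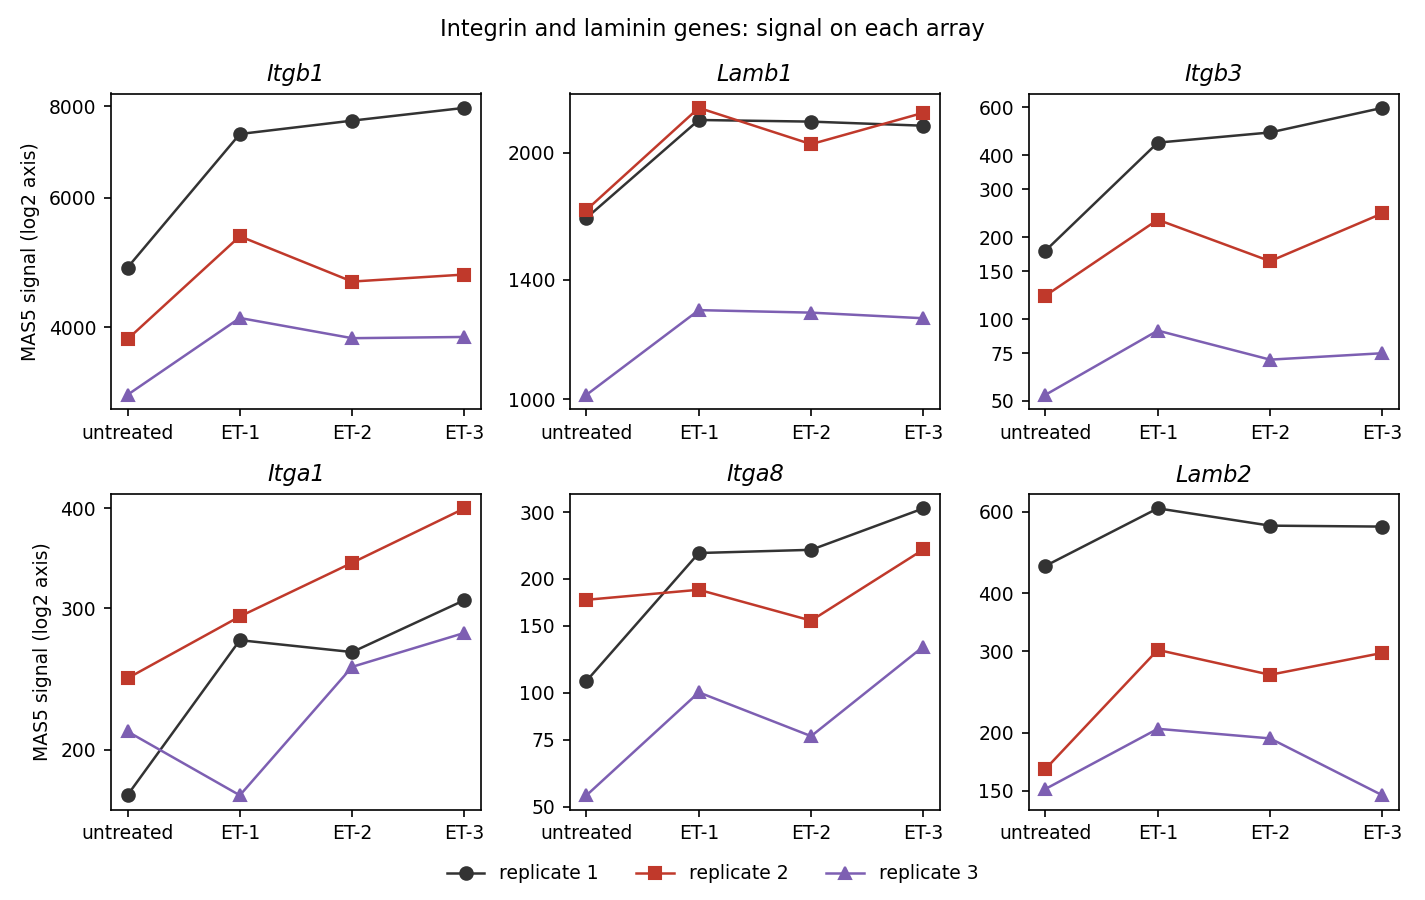
MAS5 signal on each of the 12 arrays, on a log axis, for members that rose or came near the threshold, with arrays of a replicate number joined by a line. For Itgb1 and Lamb1 each line runs from the untreated array up to higher values with every endothelin, and the line of replicate 3 lies lowest.

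The alpha-v chain itself is not a member but is the partner of both beta-3 and beta-5. It was looked at after the values of Itgb3 were known. The Itgav probe set with the highest signal read 1822, 1377 and 1028 in untreated cells and differed by 0.19 ± 0.08 in the mean contrast (adjusted p 0.177). A further pair of Itgav probe sets rose by 0.94 ± 0.14 (0.00269) and 0.72 ± 0.17 (0.0340). The probe sets of Itgav therefore disagree on whether the gene passed.

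Of the alpha chains, Itga8 and Itga1 rose with ET-3, and Itga8 also in the mean contrast. Itga8 encodes the alpha-8 chain, which pairs with beta-1 and binds nephronectin, fibronectin and tenascin, and is found on mesenchymal and smooth muscle cells as well as on some neurons. Its signal was 107.4, 175.9 and 53.56 in untreated replicates 1 to 3, and 306.8, 238.9 and 132.4 with ET-3. The ET-1 arrays read 233.8, 187 and 100.2 and the ET-2 arrays 238.4, 155 and 76.76, so that ET-2 lay under the untreated array in replicate 2. The log2 change was 1.09 ± 0.22 with ET-3 (2.12-fold, adjusted p 0.0221), 0.70 with ET-1 (0.148), 0.50 with ET-2 (0.289) and 0.76 ± 0.18 for the mean (0.0309). Itga8 was among the members just above the filter, at a mean log2 signal of 7.22 against 7.20, with an untreated mean of 6.65, so it too had to differ to be tested. With no filter it did not pass with ET-3 (adjusted p 0.0506) or in the mean contrast (0.0638). A further Itga8 probe set, under the filter and not tested, read 50.41, 88.63 and 92.14 in untreated replicates 1 to 3. In replicate 2 it was lower with ET-1, ET-2 and ET-3, at 32.56, 75.04 and 75.94. In replicates 1 and 3 it was higher with each endothelin.

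Itga1 encodes the alpha-1 chain of a collagen and laminin receptor. Untreated arrays read 175.5, 245.5 and 210.7, and the ET-3 arrays, at 307.3, 400 and 279.7, lay above all of them. With ET-2 the values were 264.7, 342.1 and 253.7, also above all untreated arrays, and with ET-1 they were 273.9, 293.2 and 175.4, which overlapped. The log2 change was 0.64 ± 0.15 with ET-3 (adjusted p 0.0439), 0.45 with ET-2 (0.174), 0.21 with ET-1 (0.533) and 0.43 ± 0.12 for the mean (0.0648).

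These alpha calls were near the threshold. For Itga8 the ET-3 call was lost without replicate 1, 2 or 3 (0.87, 1.41 and 0.98), without the untreated array of replicate 1 (0.84) and without the ET-3 array of replicate 1, 2 or 3 (1.05, 1.19 and 1.01). Its mean call was lost without replicate 1 or 3 (0.51 and 0.69), without the untreated array of those numbers (0.51 and 0.69), and without the replicate 1 array of any endothelin (0.75, 0.70 and 0.75) or the replicate 3 array of ET-1 (0.74). The ET-3 call of Itga1 held in 6 of 22 alternatives with the block. It was lost without replicate 1 (0.56) or 2 (0.61), without the untreated array of replicate 1 (0.52) or 2 (0.62), without any 1 of the ET-3 arrays (0.65, 0.62 and 0.65), any 1 of the ET-2 arrays or the ET-1 array of replicate 2 (each 0.64). In the mean contrast Itga1 passed without replicate 3 or its untreated array (both 0.58) and without its ET-1 array (0.49), and Itga8 passed with ET-1 without the untreated array of replicate 2 (1.03).

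The other alpha chains tested did not pass. Itga3, whose product pairs with beta-1 to bind laminin, differed by 0.18 ± 0.07 in the mean contrast (adjusted p 0.160). This was made of 0.01, 0.32 and 0.19 in replicates 1, 2 and 3. In replicate 1 it was lower with ET-2 (-0.05) and ET-3 (-0.02) and higher with ET-1 (0.10). Itga6, a further laminin-binding chain, read from 985.7 to 2202 in untreated cells and from 925.2 to 2147 in treated cells, and differed by -0.01 ± 0.06. Itga7, the laminin receptor chain of muscle and Schwann cells, differed by -0.10 and Itga9, a tenascin and osteopontin receptor chain, by -0.18 ± 0.11 (0.350). Itga9 was lower under all 3 numbers with each endothelin. The platelet gene Itga2b, the fibronectin receptor chain Itga5 and the collagen receptor chain Itga11 lay under the filter, and none of them exceeded a signal of 109.7 on any array.

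Some of the listed markers of pericytes and smooth muscle also rose. The summed signal over all 11 genes was 4544 to 7165 in untreated cells. It was 7964 to 11370 with ET-1, 7913 to 9543 with ET-2 and 9268 to 10870 with ET-3, with no overlap between untreated and treated arrays. Tagln alone gave the largest part of this sum, reading 2708, 4637 and 5003 in untreated replicates 1 to 3. Of the 7 tested, Acta2 (0.55), Cnn1 (0.63), Tagln (0.72) and Pdgfrb (1.02) rose in the mean contrast, where 4.02% of all genes rose and 1.25% fell. Abcc9, a channel subunit of pericytes, differed by -0.22 (adjusted p 0.345), and Notch3, a receptor of mural cells, by 0.44 (0.172). Myh11, the myosin of mature smooth muscle, differed by 0.14 (adjusted p 0.449), and the pericyte genes Rgs5, Kcnj8, Cspg4 and Des lay under the filter on average, Rgs5 with no array above 56.87. Cspg4 read 28.8, 25.99 and 34.65 in untreated replicates 1 to 3 and from 35.72 to 130.6 on treated arrays, without overlap. Untreated and treated arrays overlapped for Rgs5, Kcnj8 and Des. Of the 4 genes that rose, Acta2, Cnn1 and Tagln encode actin or actin-associated proteins, which other cells also make, while Pdgfrb encodes a receptor. The part of these markers in the integrin results was not tested. Of 9 fibroblast markers tested, none rose and 2 fell in the mean contrast (4.02% and 1.25% of all genes), Ogn by 0.88 and Col3a1 by 0.27. The summed signal of all 12 listed fibroblast markers in replicate 1 was 59840 in untreated cells and 58540, 62450 and 56600 with ET-1, ET-2 and ET-3.

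The sequences before the start sites of Itgb1 and Itga8, 2 integrin genes that rose, are given to show the regions just upstream of them. They come from RefSeq (assembly GRCr8), cover the 250 bases before the annotated start and are written 5′ to 3′ on the gene's strand. The Itgb1 window lies at chr19:73602027-73602276 on the plus strand and the Itga8 window at chr17:80410634-80410883 on the minus strand; both are upstream of their gene models. Capitals mark the GC box (GGGCGG, read on both strands) and the TEAD motif (GGAATG).
Itgb1: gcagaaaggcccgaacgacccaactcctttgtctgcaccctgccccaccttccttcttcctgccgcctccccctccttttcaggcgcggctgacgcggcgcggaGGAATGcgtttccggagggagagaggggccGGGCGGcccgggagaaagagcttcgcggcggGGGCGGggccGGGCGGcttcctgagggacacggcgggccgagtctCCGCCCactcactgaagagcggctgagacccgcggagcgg
Itga8: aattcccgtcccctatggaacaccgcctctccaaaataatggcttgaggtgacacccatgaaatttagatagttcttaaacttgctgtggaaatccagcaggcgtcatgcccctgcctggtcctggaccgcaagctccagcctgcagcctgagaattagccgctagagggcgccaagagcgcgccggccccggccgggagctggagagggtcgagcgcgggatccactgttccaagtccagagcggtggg
The Itgb1 window was 71.2% G and C and held 4 GC boxes and 1 TEAD motif, 146 to 141 bases before the start. The Itga8 window was 59.6% G and C and held neither. The median over all windows was 52%. Neither window held the AP-1 motif TGANTCA, the CArG box of SRF or the TATA box TATAAA, each also read on both strands. Of 27457 windows of this length, 32.4% held a GC box, 11.8% the TEAD motif, 6.36% the AP-1 motif, 1.5% a CArG box and 13.1% a TATA box. Of the 32 member genes with a window in the table, 14, 5, 2, 2 and 2 held them in that order. A match is a run of letters and not a shown binding site.

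Among the laminins, Lamb1 rose with each endothelin, and the other 5 tested genes did not pass. Lamb1 encodes the beta-1 chain of the laminins that RGC axons meet during development. Its signal was 1665, 1703 and 1013 in untreated replicates 1 to 3. It was 2192, 2268 and 1285 with ET-1, 2182, 2048 and 1276 with ET-2, and 2157, 2237 and 1256 with ET-3. Replicate 3 was lowest in every group, so the pooled groups overlapped, and every treated array exceeded the untreated array of its number. The log2 change was 0.38 ± 0.06 with ET-1 (1.31-fold), 0.33 with ET-2 and 0.36 with ET-3, with adjusted p of 0.00466, 0.0165 and 0.00624. For the mean it was 0.36 ± 0.05 (0.00111) and was 0.39, 0.36 and 0.33 within replicates 1, 2 and 3.

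With ET-1 the Lamb1 call ended without replicate 1 (0.38) or 2 (0.37). With ET-2 it ended without replicate 1, 2 or 3 (0.30, 0.36 and 0.33) and without the ET-2 array of replicate 1 (0.30) or 3 (0.31), and with ET-3 without replicate 1 (0.35) or 2 (0.34) and without the ET-3 array of replicate 2 (0.34). The mean contrast kept its call under each omission.

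Lamb2, the beta-2 chain found at synapses and in the retina, read 458.3, 167.2 and 151.4 in untreated cells and 609.8, 302 and 204.1 with ET-1. It differed by 0.57 with ET-1 (adjusted p 0.0850) and by 0.45 ± 0.12 in the mean contrast (0.0523), and passed in the latter without the untreated or the ET-3 array of replicate 3 (0.56 and 0.51), and with ET-1 without that untreated array (0.67). Lamc1, the gamma-1 chain present in most laminins, read 2012, 958 and 818.3 in untreated cells. The mean contrast was 0.30 ± 0.10 (0.109), made of 0.49 and 0.46 in replicates 1 and 2 and -0.05 in replicate 3. Without replicate 3 it was 0.47 and passed (0.0339), as it did without the untreated array of that number (0.47, 0.00925). Without the latter array it also passed with ET-1 (0.49) and ET-3 (0.52). A further Lamc1 probe set, under the filter and not tested, was higher on each treated array than on the untreated array of its number. In replicate 3 it read 140.8 untreated and 209.1, 179.6 and 191.2 with ET-1, ET-2 and ET-3.

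Lama5, the alpha-5 chain of many mature basement membranes, read 163, 194.6 and 142.2 in untreated cells, and its ET-3 arrays at 197.3, 285 and 237.4 all lay higher. The mean contrast was 0.43 ± 0.14 (adjusted p 0.112), which passed without the ET-1 array of replicate 1 (0.51). Lama4, the alpha-4 chain of vessels and peripheral nerve, differed by -0.01 ± 0.06 and Lamc3, a gamma chain known from the retina, by 0.02 ± 0.22. The median change over the 6 laminins was 0.33, against -0.02 over all genes tested. Lama1, Lama2, Lama3 and Lamb3 lay under the filter, and of these Lama2 reached 252.7 on the untreated array of replicate 1 against 39.28 and 52.97 on those of replicates 2 and 3.

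None of the 8 cadherins tested passed in any comparison. Cdh2, N-cadherin, the main cadherin of neurons and also of many mesenchymal cells, read 2220, 2159 and 1726 in untreated cells and from 1589 to 2683 in treated cells. It differed by 0.02 ± 0.07 in the mean contrast, the only one of the 8 above 0. Cdh22, a type II cadherin of brain, read 4277, 6002 and 4224 in untreated cells and 3360, 3736 and 3552 with ET-1, where all 3 treated arrays lay below all untreated ones. Its log2 difference with ET-1 was -0.43 ± 0.11 (adjusted p 0.0888), and it passed without the untreated array of replicate 3 (-0.57, 0.0111) or the ET-3 array of replicate 1 (-0.43, 0.0467). In the mean contrast it differed by -0.29 ± 0.09 (0.103). There it passed with median centring (-0.34), without replicate 3 or its untreated array (both -0.43) and without the ET-3 array of replicate 3 (-0.33). With median centring, calls over all probe sets in that contrast went from 758 to 1492, of which 1066 were lower.

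Cdh6, a type II cadherin found on some RGC types, read 337.8, 191.3 and 304.6 in untreated cells and 167.5, 191.8 and 127 with ET-3. The ET-3 difference was -0.76 ± 0.24 (adjusted p 0.115), with hardly any difference in replicate 2. Cdh11, a mesenchymal cadherin, read 3622, 1877 and 1561 in untreated cells and 2172, 1972 and 1836 with ET-1, so that only the untreated array of replicate 1 stood apart. It differed by -0.15 ± 0.12 in the mean contrast. Cdh13, the cadherin anchored in the membrane by a lipid, differed by -0.03, Cdh10 by -0.08, Cdh7 by -0.13 and Cdh15, the cadherin of muscle, by -0.03, none past the test. The median over the 8 cadherins was -0.10, against -0.02 over all genes tested, and was -0.12 with quantile normalization. Median centring moved every change in the mean contrast by the same -0.06, so the -0.16 there follows from that shift. The other 8 cadherins lay under the filter, among them Cdh1 and Cdh3, E- and P-cadherin; neither probe set of Cdh1 exceeded 36.02 on any array.

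Of the prefix matches, Itgb1bp1, a protein that binds the beta-1 tail, read 1899, 1913 and 2215 in untreated cells and 1800 to 2221 in treated cells. Itgb3bp, a protein of the centromere first named for binding beta-3, differed by 0.02 ± 0.06, and Itgb1bp2, of muscle, lay under the filter.

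Replicate number separated the arrays more than treatment did for most members. The range between the means of the 3 numbers exceeded the range between the 4 groups for 23 of the 26 tested members, and for 83.3% of all tested genes. The median range over members was 0.63 between numbers and 0.27 between groups on the log2 scale. Among untreated arrays, replicate 1 exceeded the mean of replicates 2 and 3 by over 1 on the log2 scale for 4 tested members, Lamb2 (1.53), Lamc1 (1.18), Itgb3 (1.15) and Cdh11 (1.08). No tested member was lower there by as much; the lowest was Itga1 (-0.37). Among members under the filter, where signals are dim, it was higher by 2.47 for Lama2 and 1.19 for Cdh20 and lower for Itgb7 (-1.73), Itgb6 (-1.64), Itgb4 (-1.53) and Itga11 (-1.09). Replicate 1 also held the highest fibroblast sums, whose part in these levels was not tested. Replicate 1 was the highest number for 10 members, replicate 2 for 10 and replicate 3 for 6.

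**Figure D3:**
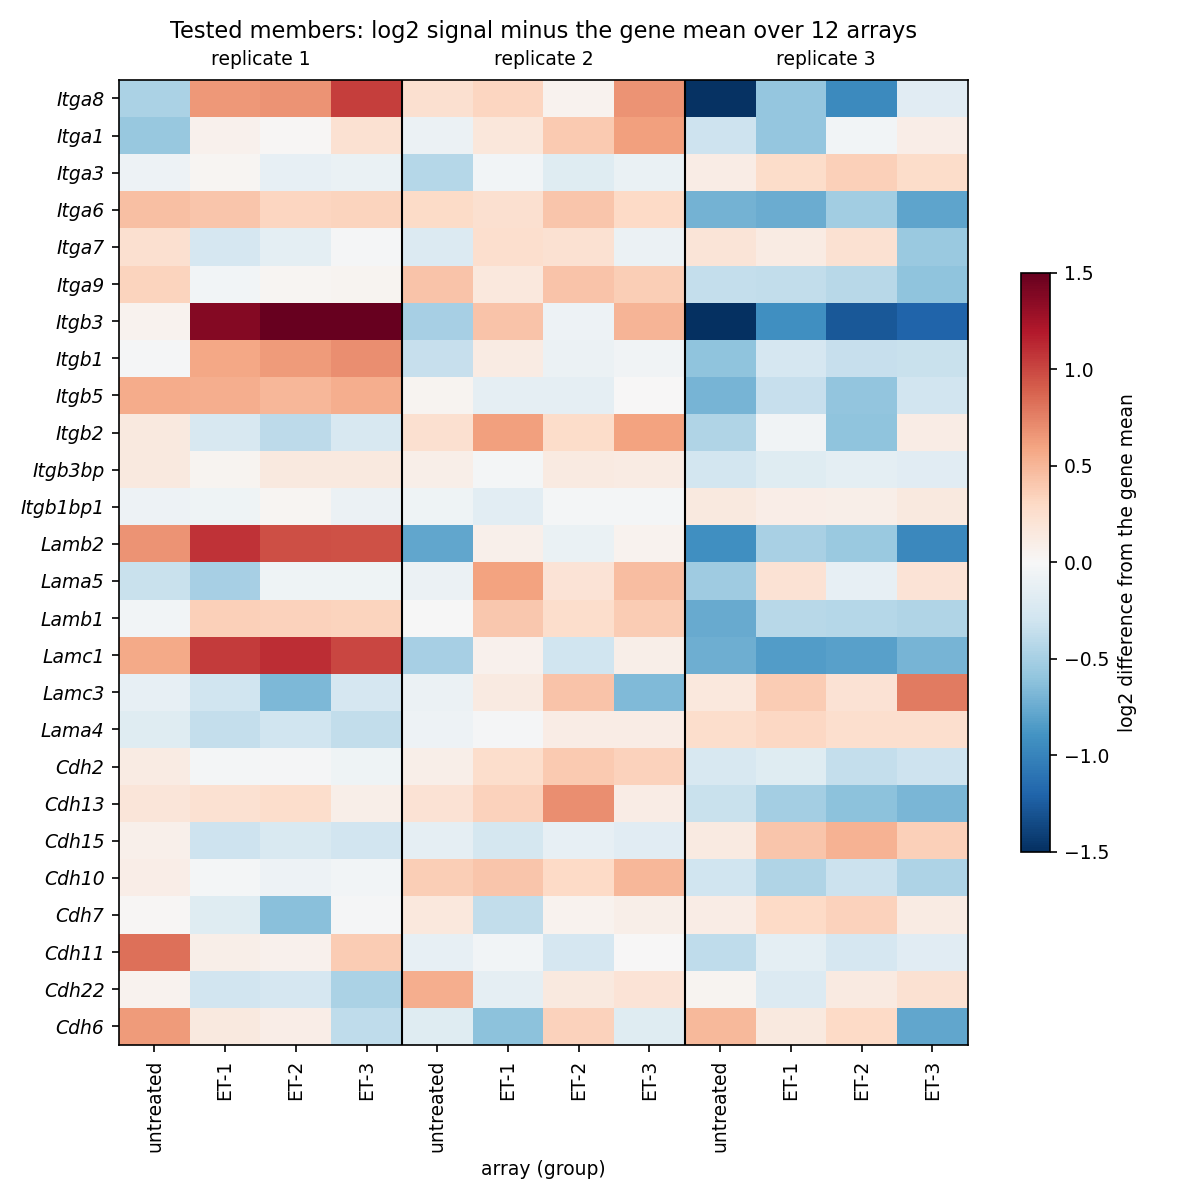
Log2 signal of each tested member on each array minus that gene's mean over the 12 arrays, ordered by replicate number and then group; red is above and blue below the gene's mean, and values beyond the ends of the colour scale take its end colours. Lamb2 and Lamc1 are red across replicate 1 and blue across replicate 3. Itgb3 is blue across replicate 3 and red on the treated arrays of replicate 1, where its untreated array is near its mean. Within each number the untreated column is paler or bluer than the treated ones for Itgb1, Itgb3 and Lamb1.

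Between the endothelins themselves no member passed the test, and neither did any of the 15521 probe sets (limma). At an unadjusted p below 0.05 there were 1, 1 and 3 members, and 574, 347 and 583 probe sets, for ET-2 against ET-1, ET-3 against ET-1 and ET-3 against ET-2, all at 100 nM and 24 h. For Itgb1 the ET-3 minus ET-2 difference was 0.03, with a 95% interval from -0.14 to 0.21. For Lamb1 the ET-3 minus ET-1 difference was -0.03 (-0.15 to 0.10). Itga1 differed most from ET-1 with ET-3, by 0.43 (0.10 to 0.76). Itga8 differed between ET-3 and ET-2 by 0.59 (0.11 to 1.07), Itgb2 by 0.40 (0.07 to 0.73) and Cdh6 by -0.69 (-1.21 to -0.18). The adjusted p was 0.9989 for each ET-3 against ET-2 difference and 0.9996 for each ET-3 against ET-1 difference, so the data neither separate the peptides at these genes nor show that they act alike.

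The median change over the 26 members was 0.02 in the mean contrast, and it was -0.04 after median centring. By family it was 0.08 for the alpha chains, 0.24 for the beta chains, 0.33 for the laminins and -0.10 for the cadherins. These signs held under quantile normalization, with 15 members above 0 against 14. Median centring moved every change in this contrast by the same -0.06. The signs kept under it, and the 9 members then above 0, follow from that shift.

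Genes that work with the members were read from lists of partners. These lists were chosen with earlier results of these data known, so their counts are a description. Of all genes tested, 4.02% rose and 1.25% fell in the mean contrast, and each list below is to be read against these shares. Of 29 focal adhesion genes tested, 11 rose and none fell in that contrast, with a median of 0.24. Among them were Csrp1, a LIM-domain protein of actin bundles (0.62 ± 0.07), Lims1, the adaptor that binds integrin-linked kinase (0.49 ± 0.06), Bcar1, the scaffold p130Cas (0.57 ± 0.08), the actin crosslinker Actn1 (0.67 ± 0.09) and Vcl, vinculin (0.49 ± 0.07). The adjusted p of these 5 ran from 0.000775 for Csrp1 to 0.00235 for Vcl. With ET-1, ET-2 and ET-3 alone 7, 6 and 7 rose, where 1.84%, 1.49% and 2.54% of all genes did. The count was 6 without replicate 1, without its untreated array or without replicate 2. Of the 7 pericyte and smooth muscle markers tested, 4 rose in the same contrast as given above.

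Of 15 extracellular integrin ligands tested, 7 rose and none fell (4.02% and 1.25% of all genes), with a median of 0.30. They included the matricellular genes Ccn2 (0.83 ± 0.07), Ccn1 (1.38 ± 0.18) and Ccn3 (0.74 ± 0.10), Icam1, the ligand of the beta-2 integrins (0.79 ± 0.09), and Spp1, osteopontin (1.10 ± 0.21). The count was 4 without replicate 1. Of 17 basement membrane partners of laminins, 3 rose and none fell (4.02% and 1.25% of all genes), and all 3 are chains of collagen IV: Col4a1 (0.82 ± 0.10), Col4a2 (0.56 ± 0.08) and Col4a5 (0.57 ± 0.12). Nid1, nidogen, the link between laminin and collagen IV, differed by 0.28 ± 0.07 (adjusted p 0.0531), and Agrn, agrin, by -0.15 (0.151). The median over the 17 was 0.06.

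Of 19 catenins and junction proteins, none rose and 2 fell in the mean contrast, where 4.02% and 1.25% of all genes did: Ctnna2, the neuronal alpha-catenin (-0.21 ± 0.05, adjusted p 0.0405), and the scaffold Magi1 (-0.26 ± 0.07, 0.0464). Both calls were lost with quantile normalization, without replicate 1, 2 or 3, without the untreated array of replicate 1 or 2, and without the replicate 1 array of ET-1 or ET-2, the replicate 2 array of ET-1 or ET-3 or the replicate 3 array of ET-2. Ctnna1, the broadly expressed alpha-catenin, differed by 0.25 (0.0684) and Ctnnb1, beta-catenin, by 0.10 (0.185). Of 15 protocadherins and other cadherin superfamily genes, 1 rose and 2 fell, beside the same shares of all genes. Fat1, a giant cadherin, rose by 0.45 ± 0.07 (0.00331). Pcdh17, a protocadherin, fell by 0.29 (0.0261) and Ret, the receptor kinase with cadherin-like repeats, fell by 0.26 (0.0282). No gene of this list fell past the threshold without replicate 1 or 2, the untreated array of either number or the ET-2 array of replicate 1, and Fat1 lost its call without replicate 2.

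**Figure D4:**
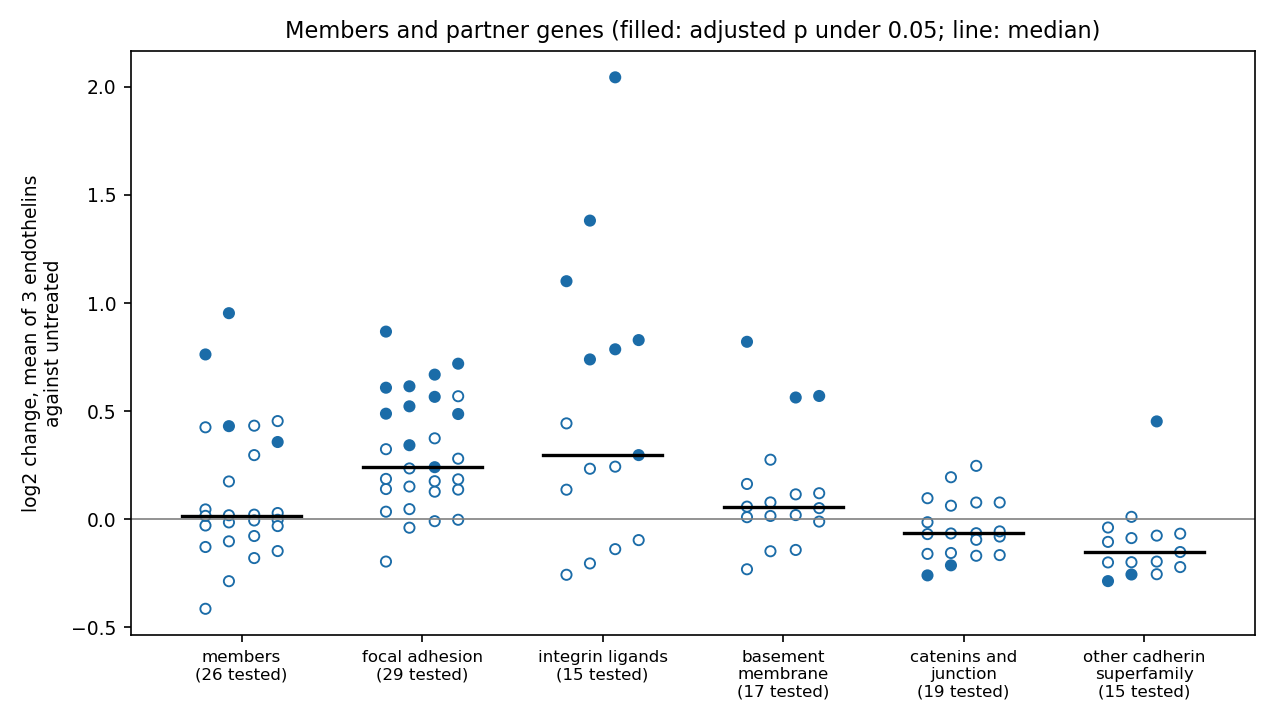
Log2 change in the mean of the 3 endothelins against untreated for the 26 tested members and for each tested gene of 5 partner lists; each point is a gene, filled where the adjusted p was under 0.05, and the line is the list's median. Filled points lie above 0 for members, focal adhesion genes, integrin ligands and basement membrane genes; catenins and junction genes have 2 filled points below 0.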

How the data were processed

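Each of the 12 arrays was hybridised with RNA of 1 sample. The deposited values are linear signal intensities per probe set. MAS5, which condenses a probe set to 1 value, is named in the submitters' processing notes without version or settings. The 2% trimmed mean was 496.7 to 498.3 on every array, and array medians ran from 136 to 181. Gene symbols came from the annotation of the platform: of 31042, 20826 had 1 symbol, 436 several and 9780 none.

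The intensities the authors deposited were used as log2 values with no pseudocount. The 15521 probe sets at or above the median mean log2 signal (147.5 on the linear scale) were tested with limma 3.58.1 in R 4.3.3: 4 group means, the replicate number as a block, contrasts, and eBayes with the prior trended on intensity. All p-values are two-sided. The deviations of same-numbered arrays from their group means correlated in all 18 pairs (r from 0.684 to 0.912), which is the basis for taking the numbers as pairs; no label states a pairing. Negative values between different numbers (-0.706 to -0.0555) follow in part from the centring. With the block the median residual SD was 0.127 on 6 residual degrees of freedom, and without it 0.250 on 8.

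Members called in any contrast are named, then others by unadjusted p in the mean contrast up to 24; of each partner list, up to 5 by that p. Members, marker lists and partner lists were chosen with earlier results of these data known. Signals are not compared between probe sets. The number of arrays limits the precision.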

Additional observations from a re-analysis of the deposited data

How the results depend on the processing

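Counts of members passing the test changed with the pairing, with other settings and with single arrays. Without the replicate block they were 0 with ET-1, ET-2, ET-3 and their mean, against 3, 2, 5 and 4 with it. Fitting only the groups compared gave 1, 0 and 0 for the single peptides, median centring 1, 0 and 3, and no intensity trend 1, 0 and 2. Without a signal filter ET-2 gave 1 and ET-3 gave 3. Quantile normalization gave 3 for ET-3, and a stricter signal filter gave 2 for ET-3 and 2 for the mean, with fewer genes tested. Omitting a replicate number or a single array gave ranges of 0 to 6 (ET-1), 0 to 3 (ET-2), 0 to 6 (ET-3) and 2 to 7 (mean). Over all probe sets the calls then ranged from 23 to 575, 27 to 404, 43 to 685 and 224 to 1014. The cause of these changes was not tested beyond the fewer arrays or genes. The 3 comparisons between endothelins gave 0 members under every alternative. A robust prior and a pseudocount of 32 left all counts within 1.5 times.

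Of 96 changes against untreated examined for the named members, 14 passed, and none of these changed sign under any alternative. Of the 82 that did not pass, 38 changed sign and 11 passed under at least 1 alternative. Itgb1 and Lamb1 in the mean contrast passed in all 23 alternatives with the block, with adjusted p up to 0.0328 and 0.0327. Itgb3 passed in 19 of 22, Itga8 in 11 of 22, and Itga1 with ET-3 in 6 of 22. With 3 arrays per group, differences near 0.2 on the log2 scale were within the error of dim members such as Itgb3 (SE 0.21) and Itga8 (0.22).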

Other observations

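Itga1 was among the few tested members whose means differed more between groups (a range of 0.64 on the log2 scale) than between replicate numbers (0.48). The others were Itga7 (0.32 and 0.09) and Cdh6 (0.76 and 0.28), which did not pass the test. For 83.3% of all tested genes the range between numbers was the wider. Gja1, the gap junction protein connexin 43, rose by 1.03 ± 0.10 in the mean contrast (limma, adjusted p 0.00022). It was the only call among 5 tested astrocyte and Mueller glia markers, where 4.02% of all genes rose and 1.25% fell.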
